A study of Mus musculus with 8 samples.

Results

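The 8 genes described here encode transcription factors that mark or build segments of the nephron. They are Maf, Zfp503, Hnf4a, Pax2, Pax8, Esrrg, Tfap2b and Gata3. They were taken from the 23386 genes of the deposited table by symbol, 1 row each, and they had been selected on earlier results of the same knockout against wild-type contrast, so the differences between the genotypes given for them are descriptions with no test. The study sequenced poly-T selected RNA from the whole left kidney of mice aged 49 weeks, 1 library per animal. The 4 KO animals were Ctrp1-/- and carried the C1qtnf1 tm1Lex allele, in which the coding part of exon 4 and a stretch of the 3' UTR are deleted. The 4 WT animals were +/+ littermates from the same heterozygous crosses. The allele was made in 129S5/Sv embryonic stem cells and backcrossed to C57BL/6J for more than 6 generations, it is a germline deletion, and the labels speak of males and females without giving the sex of each animal.

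A nephron is a tube whose stretches differ in their transporters, and each stretch keeps its own set of transcription factors into adult life. HNF4A and MAF belong to the proximal tubule, which reabsorbs most of the filtered solutes. PAX2 and PAX8 build the whole nephron lineage in the embryo and persist in the distal parts of the tubule, ESRRG drives oxidative metabolism in the thick ascending limb, TFAP2B acts in the distal tubule, and GATA3 marks the collecting duct. ZNF503, the human counterpart of the Zfp503 product, is a zinc finger repressor best known from brain and limb development.

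Values are scaled FPKM, that is, the deposited fragments per kilobase of gene at a common sequencing depth, divided by 1 factor per library. The libraries held 15027400 to 19256378 counted reads. The targeted gene C1qtnf1 averaged 0.325 scaled FPKM in KO kidneys and 3.63 in WT kidneys (log2 fold change -2.32, limma adjusted p = 0.000768). KO replicate 3 had the highest level of 10 of 11 genes of urea and water transport in the medulla, and WT replicate 3 had the highest level of 4 of 5 tubule injury markers, with Havcr1 at 4.73 against at most 1.89 in the other 7 libraries. Markers of podocytes and of the proximal, loop, distal and collecting duct cells were present, Avpr2 alone failing the filter on low values. The adrenal genes Cyp11a1, Cyp17a1 and Hsd3b1 and the fat genes Adipoq, Plin1, Retn and Lep had means below 0.5. Star, from the adrenal list, passed the filter, with means of 1.29 in KO and 1.23 in WT. So did the fat gene Cfd, with means of 0.453 in KO and 0.998 in WT. Cfd (2.64) and Adipoq (1.21) were both highest in WT replicate 3.

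Maf and Zfp503 were lower in every KO kidney than in any WT kidney. The other 6 genes had overlapping groups, and Hnf4a, Pax8, Pax2 and Tfap2b had nearly equal group means. All 8 passed the filter on low values, a mean of at least 0.5. None of the 8 was called by limma at an adjusted p under 0.05, a rule that called 0.0499% of the 14022 genes tested (7 genes), and limma's voom on the recovered reads called none of them either. Without KO replicate 4, 1 of the 8 (Maf) was called, and without WT replicate 3 the number called over all genes was 16. At an unadjusted p under 0.05 limma took 2 of the 8 and voom 3, where limma took 15.4% of all genes. Groups that did not overlap were found for 2 of the 8, both with KO lower, where 8.62% of all genes had such groups in either direction and 4.28% had them with KO lower. Because these values chose the genes, nothing is read from the shares.

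**Figure D1:**
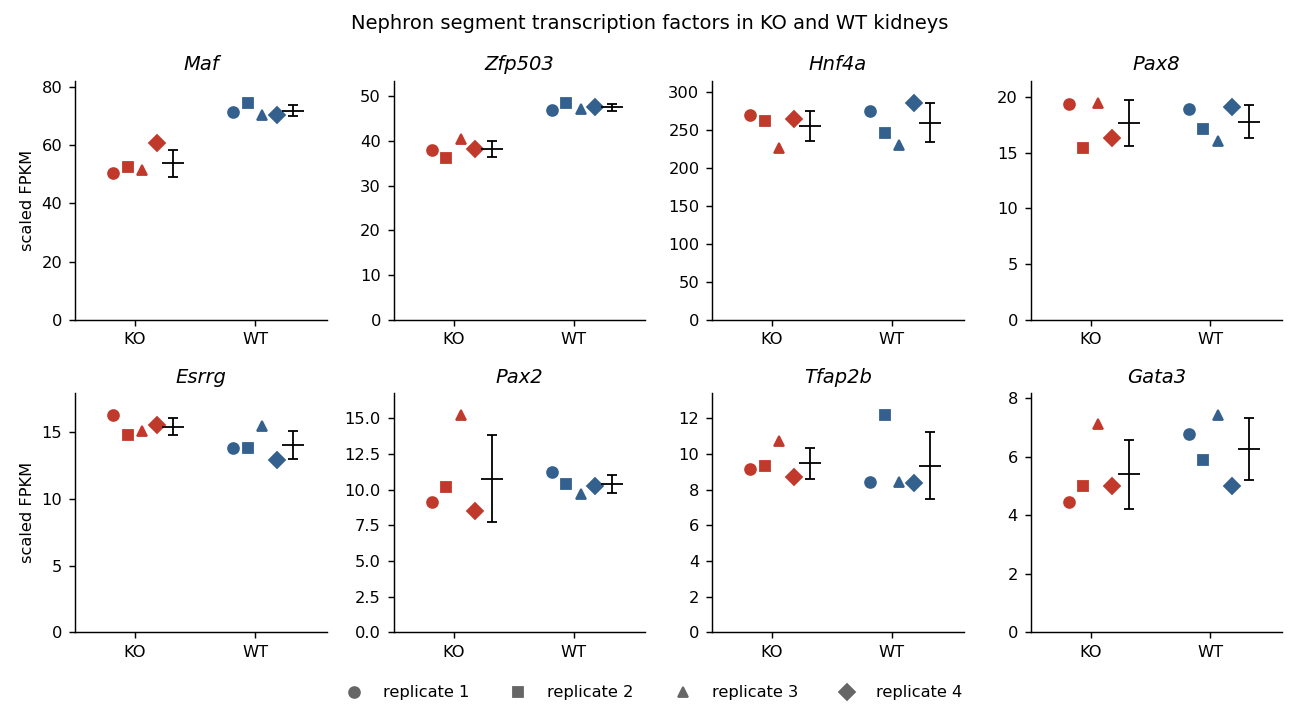
Scaled FPKM (vertical axes, from 0) of the 8 genes in the 4 KO libraries (red, left) and the 4 WT libraries (blue, right), with the symbol giving the replicate and the bar the mean ± SD. Maf and Zfp503 have no KO library as high as any WT library, Pax2 has 1 high KO library (15.2) and Tfap2b has 1 high WT library (12.2).

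Hnf4a (ENSMUSG00000017950; chromosome 2, 163506808 to 163572910, plus strand, mm10) encodes the nuclear receptor that switches on proximal tubule transporters. It measured 270, 261, 227 and 265 scaled FPKM in KO kidneys, against 276, 246, 231 and 286 in WT kidneys. Both groups had replicate 3 as their lowest library, and the ranges overlapped almost wholly. The means were 256 ± 19.6 in KO and 260 ± 25.7 in WT (SD, n = 4 each), and the log2 fold change, taken on log2(scaled FPKM + 0.5) as throughout, was -0.02 (SE 0.08). An antisense gene, Hnf4aos, overlaps 34913 bases of its span and had means of 14.9 in KO and 15.8 in WT. Strandedness of the libraries was not stated in the labels, and reads in the shared stretches cannot be assigned to either gene.

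The Hnf4a promoter is shown because the letters read by its partner HNF1, GTTAAT on either strand, stand in it as a pair. HNF1 and HNF4A are known to sustain each other in the proximal tubule. The stretch is chr2:163547066-163547095, plus strand, from RefSeq on GRCm38.p6, upstream of an inner start of the gene at 163547155, and it overlaps no exon of GENCODE vM21. The bases soon after this RefSeq start were not found in any GENCODE transcript of the gene, a check that 7 of the 13 windows passed. Capitals mark ATTAAC, the reverse complement of GTTAAT, at -81 and -74 from that start.
Hnf4a: cgggggtgATTAACcATTAACtcctacccc
These letters stood in 7.1% of 32851 promoter windows of the mouse genome, each running from 250 bases before to 50 after a start, and in 3 of the 13 windows of 7 of the 8 genes (Hnf4a, Esrrg and Tfap2b). Maf has no entry in that table. The match is a description of the letters only.

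Maf (ENSMUSG00000055435; chromosome 8, 115682942 to 115707794, minus strand, mm10) encodes the leucine zipper factor c-MAF, which in mice drives the antioxidant gene Gpx3 in proximal tubule cells and is also made by macrophages. It measured 50.3, 52.4, 51.2 and 60.6 scaled FPKM in KO kidneys, against 71.4, 74.4, 70.4 and 70.4 in WT kidneys. The highest KO library, replicate 4, was below the lowest WT library. The means were 53.6 ± 4.72 in KO and 71.6 ± 1.92 in WT (SD, n = 4 each), the ratio of means was 0.748, and the log2 fold change was -0.42 (SE 0.06). By size of log2 fold change it stood at rank 512 of the 14022 genes. The 8 libraries held 4697 to 8404 reads of it.

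Set against Hnf4a within each library, Maf came to 18.6%, 20.0%, 22.6% and 22.9% of the Hnf4a level in KO kidneys, and to 25.9%, 30.3%, 30.5% and 24.6% in WT kidneys. These ratios did not overlap between the groups. Because Hnf4a had nearly equal group means, they add little to the Maf values themselves. The same ratio for Zfp503 did overlap, with KO replicate 3 above WT replicates 1 and 4. Markers of the first proximal segments S1 and S2 summed to 3749 to 3991 scaled FPKM in KO kidneys and 4333 to 4617 in WT kidneys, with 7 of 9 lower in KO. Markers of the last segment S3 summed to 890 to 1102 in KO and 490 to 807 in WT, with all 6 higher in KO. Macrophage markers summed to 211 to 279 in KO and 267 to 290 in WT, with 5 of 7 lower in KO and Csf1r and Mrc1 higher. The sums lean on the most abundant genes. In the S1 and S2 sums, Slc34a1 alone had 2318 to 2539 in KO and 2611 to 2995 in WT. In the macrophage sums, Cd74 alone had 142 to 184 in KO and 181 to 206 in WT. The part of these cell markers in the Maf values was not tested, and in whole tissue fewer cells of a type and less RNA per cell cannot be told apart.

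Zfp503 (ENSMUSG00000039081; chromosome 14, 21983962 to 21989601, minus strand, mm10) measured 38.0, 36.2, 40.4 and 38.2 scaled FPKM in KO kidneys, against 46.9, 48.6, 47.2 and 47.5 in WT kidneys. The groups stood apart, and the WT libraries lay close together. The means were 38.2 ± 1.71 in KO and 47.5 ± 0.726 in WT (SD, n = 4 each), and the log2 fold change was -0.31 (SE 0.05). The gene is rich in G and C (58.9%), and over all genes the log2 fold change fell with GC content (Spearman's rho across genes -0.44, genes not being independent). With GC and length trends removed in each library, the value for Zfp503 was -0.23 and the groups still did not overlap, and the value for Maf was -0.47.

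The Zfp503 promoter is shown because it alone among the 13 windows held the MAF half-site letters, TGCTGAC on either strand. It was picked with the Maf and Zfp503 values known, so nothing about a link between these genes is read from it. The stretch is chr14:21989634-21989663, read on the minus strand of the gene, from RefSeq on GRCm38.p6, and no gene of the table spans it. Capitals mark GTCAGCA, the reverse complement, at -51 from the start.
Zfp503: tccaggtacaaGTCAGCAtgcacagcgcct
TGCTGAC stood in 4.67% of all windows and in 1 of these 13. The match is a description of the letters only, and whether MAF acts on Zfp503 was not tested. Within genotypes, with the mean of each group subtracted, Maf and Zfp503 did not vary together over the 8 libraries (Pearson r 0.00, a description).

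The paired-box genes Pax2 and Pax8 had nearly equal group means. Pax8 (ENSMUSG00000026976; chromosome 2, 24420560 to 24475599, minus strand) measured 19.4, 15.4, 19.5 and 16.3 scaled FPKM in KO kidneys, against 18.9, 17.1, 16.1 and 19.1 in WT kidneys, with a log2 fold change of -0.02 (SE 0.09). Its ranges overlapped throughout. Pax2 (ENSMUSG00000004231; chromosome 19, 44756045 to 44837871, plus strand) measured 9.14, 10.2, 15.2 and 8.53 in KO kidneys, against 11.3, 10.4, 9.66 and 10.2 in WT kidneys. KO replicate 3 stood above all other libraries, and the other 3 KO libraries lay below WT replicates 1 and 2. The means were 10.8 ± 3.05 in KO and 10.4 ± 0.659 in WT (SD, n = 4 each), with a log2 fold change of 0.02 (SE 0.15) that became -0.16 without KO replicate 3. Pax2 came to 47.2% to 78.2% of Pax8 within KO libraries and 53.6% to 60.8% within WT libraries.

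The library that was high in Pax2 was also high in medullary genes. Aqp2, the vasopressin-regulated water channel of the collecting duct, measured 170, 122, 446 and 108 scaled FPKM in KO kidneys, against 132, 186, 177 and 189 in WT kidneys. Slc14a2, the urea transporter gene of the inner medulla, measured 11.8, 9.52, 26.4 and 4.42 in KO, against 2.95, 14.1, 6.14 and 7.95 in WT. Both were highest in KO replicate 3 and were singled out after their values were seen. PAX2 and PAX8 are known regulators in mice of some of the 11 tested genes of urea and water transport. Among the 11, 9 were above and 2 below WT by log2 fold change, with a median of 0.37 that became 0.15 without KO replicate 3. The median over all genes was -0.00. None passed limma at an adjusted p under 0.05 or an unadjusted p under 0.05, and voom called none. The 2 genes of smallest p were the urea transporter Slc14a1, with a log2 fold change of 0.68 (SE 0.31), and the water channel Aqp4, with 0.53 (SE 0.26).

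**Figure D2:**
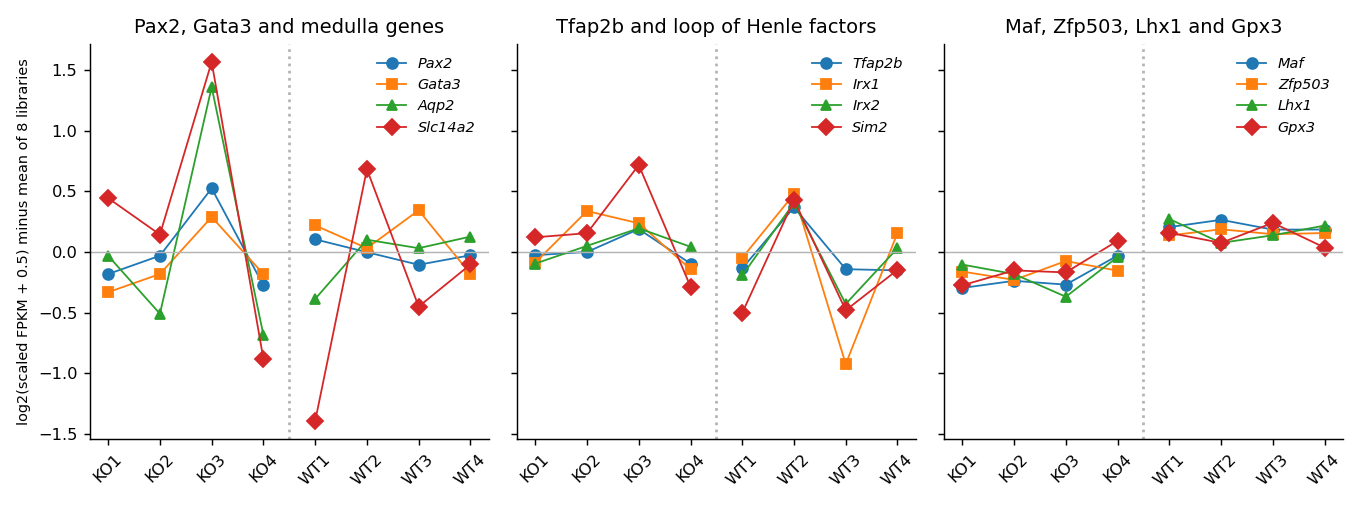
Log2(scaled FPKM + 0.5) minus the mean over the 8 libraries (vertical axis) for 12 genes in the KO libraries (left of the dotted line) and WT libraries (right of it). Pax2, Aqp2 and Slc14a2 peak in KO replicate 3, Tfap2b, Irx1 and Irx2 peak in WT replicate 2, and Maf, Zfp503 and Lhx1 are below their WT levels in all 4 KO libraries.

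Gata3 (ENSMUSG00000015619; chromosome 2, 9857078 to 9890034, minus strand), which is needed for the nephric duct, the origin of the collecting system, measured 4.47, 5.01, 7.13 and 5.01 scaled FPKM in KO kidneys, against 6.77, 5.89, 7.43 and 5.01 in WT kidneys. Replicate 3 was the highest library of both groups, and the ranges overlapped. The means were 5.40 ± 1.18 in KO and 6.28 ± 1.05 in WT (SD, n = 4 each), and the log2 fold change was -0.21 (SE 0.15). Without KO replicate 3 the value was -0.34 and every KO library was below every WT library, though KO replicates 2 and 4 and WT replicate 4 all round to 5.01. This was the least abundant of the 8 genes, with 211 to 398 reads per library, and 2 small genes of the table overlap its span, 4930412O13Rik and 9230102O04Rik, with means under 1 scaled FPKM.

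Gata2, its relative in the collecting duct, followed it most closely. Of 8160 genes with a mean of at least 5 scaled FPKM, Gata2 had the highest Pearson r with Gata3 over the 8 libraries after each genotype's mean was subtracted (0.99). It measured 7.31, 7.42, 8.55 and 7.55 scaled FPKM in KO kidneys, against 9.15, 8.71, 9.33 and 8.24 in WT kidneys, also with replicate 3 highest in both groups. The fit gave -0.19 on the log2 scale (SE 0.07, limma adjusted p = 0.244). Aqp2 was high in KO replicate 3 but not in WT replicate 3.

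Tfap2b (ENSMUSG00000025927; chromosome 1, 19208914 to 19238576, plus strand), whose loss in mice damages the distal tubule, measured 9.16, 9.34, 10.7 and 8.70 scaled FPKM in KO kidneys, against 8.46, 12.2, 8.42 and 8.35 in WT kidneys. WT replicate 2 was the highest of all libraries and the other 3 WT libraries were below every KO library. The means were 9.48 ± 0.864 in KO and 9.36 ± 1.89 in WT (SD, n = 4 each), and the log2 fold change of 0.03 (SE 0.12) was 0.16 without WT replicate 2. The same library was highest in 4 of 6 factors of the loop of Henle, among them Irx1, an Iroquois factor of intermediate tubule, at 17.7, 24.0, 22.3 and 17.0 in KO and 18.2, 26.4, 9.70 and 21.1 in WT. Irx1 was singled out after its values were seen. The part of tissue makeup in these values was not tested.

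Esrrg (ENSMUSG00000026610; chromosome 1, 187608791 to 188214885, plus strand) measured 16.3, 14.8, 15.1 and 15.6 scaled FPKM in KO kidneys, against 13.8, 13.8, 15.5 and 12.9 in WT kidneys. Only WT replicate 3 reached into the KO range. The means were 15.4 ± 0.658 in KO and 14.0 ± 1.05 in WT (SD, n = 4 each), and the log2 fold change was 0.14 (SE 0.06). Its transcripts are poor in G and C (42.5%), and with GC and length trends removed the value was 0.04. Thick ascending limb markers summed to 1727 to 2189 in KO kidneys and 1433 to 2160 in WT kidneys, with 6 of 7 higher in KO. Most of these sums was Umod, at 1339 to 1665 in KO and 1116 to 1670 in WT.

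ESRRG and its relatives are known to activate genes of mitochondrial energy metabolism. Of 12 such genes tested, 3 were above and 9 below WT by log2 fold change, none was called by limma or voom, 1 had an unadjusted p under 0.05, and the median log2 fold change was -0.02, or 0.01 with quantile normalization. The 2 of smallest p were Cycs, cytochrome c (0.20, SE 0.08, limma adjusted p = 0.280), and Mdh2, mitochondrial malate dehydrogenase (-0.10, SE 0.05, limma adjusted p = 0.344). The relative Esrra measured 75.6, 78.9, 75.4 and 76.8 scaled FPKM in KO kidneys, against 99.6, 87.5, 71.6 and 91.6 in WT kidneys, with WT replicate 3 below the KO range and the other WT libraries above it (-0.18, SE 0.09, limma adjusted p = 0.354).

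The levels of the 8 genes, in FPKM and so per length, spanned from Hnf4a at a mean of 258 over all 8 libraries to Gata3 at 5.84. The test of their order covers the spread between libraries only, in pairs set by the same means. It does not cover bias between genes from annotated length or GC content (42.5% in Esrrg to 62.2% in Pax2). The order was Hnf4a, Maf, Zfp503, Pax8, Esrrg, Pax2, Tfap2b and Gata3 in the KO means and in the WT means alike. Hnf4a was 4.11 times Maf, Maf 1.46 times Zfp503, Zfp503 2.42 times Pax8, Pax8 1.20 times Esrrg, and Tfap2b 1.61 times Gata3, each in 8 of 8 libraries (exact two-sided sign-flip permutation test within libraries, adjusted p = 0.0109 over 7 pairs for each, where the smallest raw p possible is 0.00781). Esrrg was 1.39 times Pax2, higher in 7 of 8 libraries (same exact permutation test, adjusted p = 0.0182). Pax2 and Tfap2b were not told apart, with Pax2 1.12 times Tfap2b in means and higher in 5 of 8 libraries (same exact permutation test, adjusted p = 0.125).

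**Figure D3:**
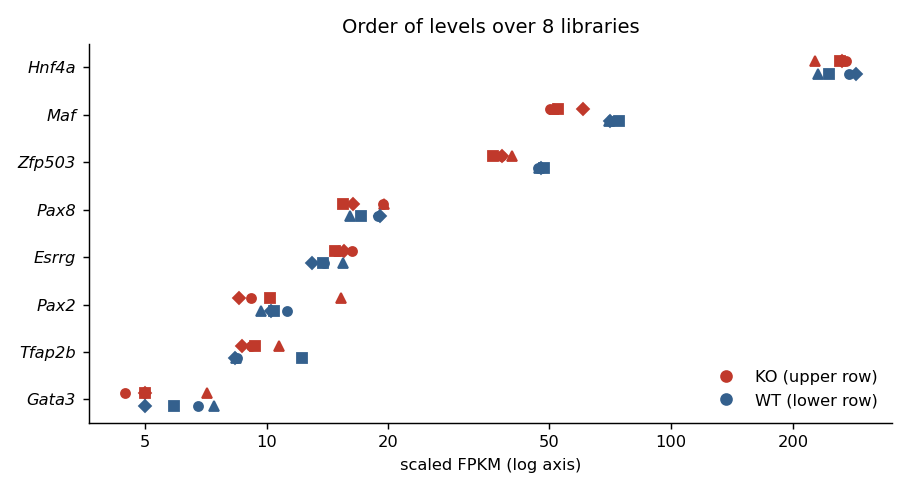
Scaled FPKM (log axis) of the 8 genes in each KO library (red, upper row) and WT library (blue, lower row), from the most to the least abundant, with symbols by replicate as in the plot of values by gene. Hnf4a stands apart at 227 to 286, and the ranges of Pax2 (8.53 to 15.2) and Tfap2b (8.35 to 12.2) overlap in part.

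The same promoter windows were searched for the letters bound by the other factors. The HNF4 motif CAAAGTCCA (0.475% of all windows), the ERR motif TCAAGGTCA (0.423%) and the PAX motif GCGTGAC (2.09%) were found in none of the 13 windows, on either strand. The GATA motif AGATAA (11.2% of all windows) was found in 1, at the upstream start of Hnf4a. The AP-2 motif GCCNNNGGC (16.6%) was found in 3, those of Esrrg, Gata3 and Pax2. These matches describe letters in short windows and nothing more.

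A further 42 transcription factors of the nephron, from lists written with earlier results of these data known, gave a background for the 8. Of these 39 passed the filter, and Six2, Cited1 and Eya1, factors of the embryonic progenitor, did not. None of the 39 was called by limma or by voom, 7 had an unadjusted p under 0.05 (1 higher, 6 lower in KO), 15 were above and 24 below WT by log2 fold change, and the median was -0.02. The median over all genes was -0.00, and 15.4% of all genes had an unadjusted p under 0.05. With single libraries left out the median of the 39 ran from -0.10 (without WT replicate 3) to -0.04 (without WT replicate 1), and it was -0.17 without both KO replicate 3 and WT replicate 3. The KO and WT libraries did not overlap for 4 of the 39 (Emx1, Sall3, Hmx2 and Lhx1), all with KO lower, against 4.28% of all genes. The gap between the groups was narrow for Emx1, Sall3 and Hmx2. Given how the lists were written, nothing is read from these shares.

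**Figure D4:**
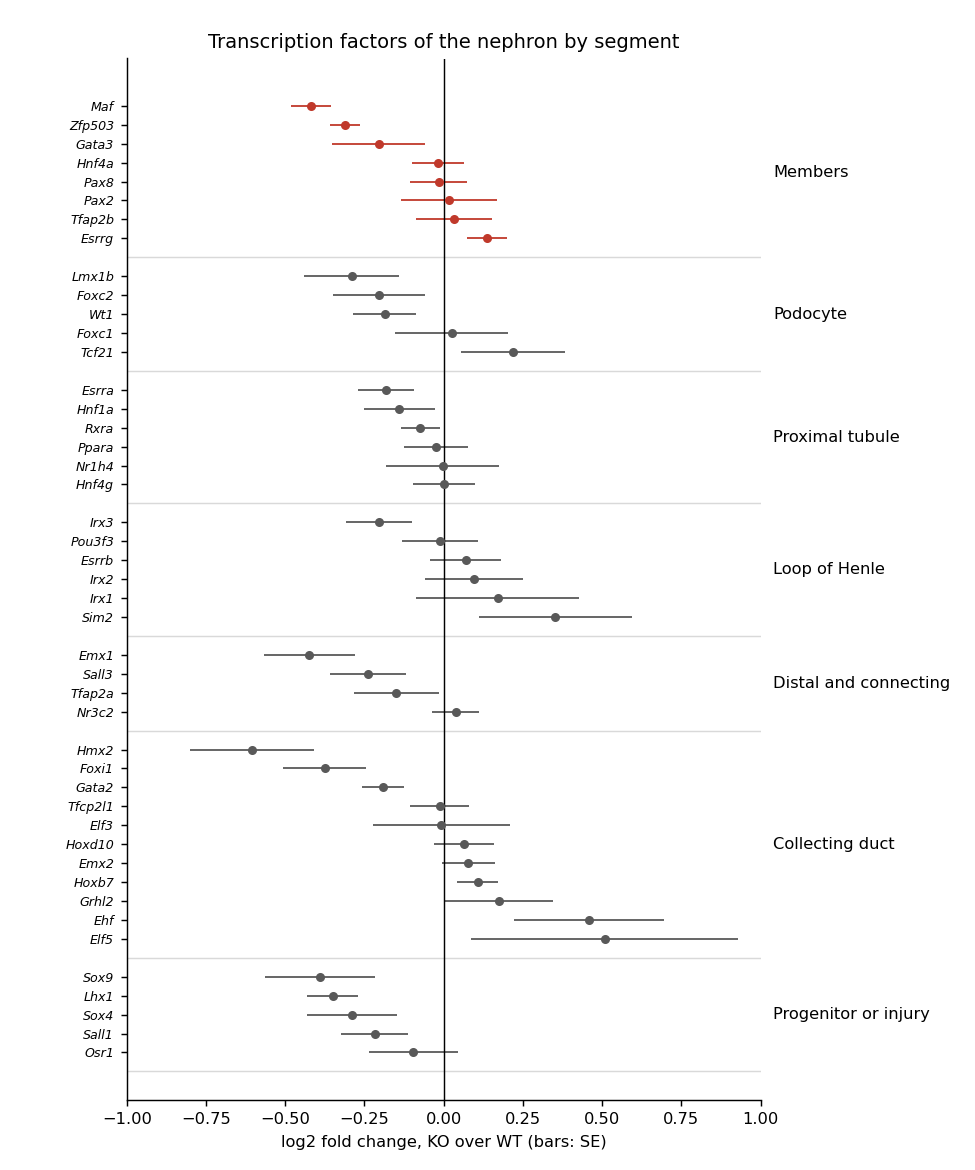
Log2 fold change, KO over WT, with SE bars for the 8 genes (red) and 37 of the other nephron transcription factors (grey) by segment. Maf lies at -0.42 and Zfp503 at -0.31, and the other factors drawn range from -0.60 (Hmx2) to 0.51 (Elf5), with no segment wholly on one side except the 5 progenitor or injury factors.

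By segment, the 5 tested progenitor or injury factors were all below WT, with a median of -0.29, the 4 distal and connecting factors had -0.19, the 6 podocyte factors -0.18, the 7 proximal factors -0.02, the 11 collecting duct factors 0.07 and the 6 loop factors 0.08. These medians moved with single libraries left out, and the proximal and loop medians changed sign. The distal and connecting median was -0.25 without WT replicate 4 and -0.13 without WT replicate 1. The progenitor or injury median was -0.33 without WT replicate 4 and -0.22 without WT replicate 2. The podocyte median was -0.12 without KO replicate 2. The proximal median was 0.04 without KO replicate 3 and -0.11 without KO replicate 4, the collecting duct median was 0.00 without KO replicate 3 and 0.12 without WT replicate 2, and the loop median was -0.07 without WT replicate 3 and 0.20 without WT replicate 2. The podocyte median was -0.10 with GC and length trends removed. Lhx1, a homeobox gene of the early renal vesicle, measured 7.77, 7.33, 6.38 and 8.14 scaled FPKM in KO kidneys, against 10.2, 8.86, 9.28 and 9.83 in WT kidneys (log2 fold change -0.35, SE 0.08, limma adjusted p = 0.155). Its groups did not overlap. Sox9, a factor of injured and regrowing tubule, had a log2 fold change of -0.39 (SE 0.17, limma adjusted p = 0.322), with at most 1.08 scaled FPKM in any library.

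In the distal and connecting list Emx1 measured 24.6, 26.6, 26.1 and 27.8 scaled FPKM in KO kidneys, against 49.7, 35.0, 28.3 and 31.9 in WT kidneys (-0.42, SE 0.14, limma adjusted p = 0.235). Every KO library was below every WT library, and WT replicate 1 was the highest. Sall3, a zinc finger gene, had a log2 fold change of -0.24 (SE 0.12, limma adjusted p = 0.362). Its highest KO library was at 1.54 scaled FPKM and its lowest WT library at 1.56. In the collecting duct list the factors of smallest p were Hmx2, a homeobox gene (-0.60, SE 0.19, limma adjusted p = 0.218), and Foxi1, the regulator of intercalated cells (-0.38, SE 0.13, limma adjusted p = 0.243). Hmx2 measured 4.02, 4.13, 3.37 and 4.87 scaled FPKM in KO kidneys, against 9.91, 6.85, 4.91 and 5.10 in WT kidneys. Intercalated cell markers were below WT in 6 of 8, and their part in the Foxi1 and Hmx2 values was not tested.

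The podocyte genes of smallest p were Lmx1b (-0.29, SE 0.15, limma adjusted p = 0.377) and Wt1 (-0.19, SE 0.10, limma adjusted p = 0.392), and those of the loop were Irx3 (-0.21, SE 0.10, limma adjusted p = 0.369) and Sim2 (0.35, SE 0.24, limma adjusted p = 0.504). Podocyte markers had a median log2 fold change of -0.06 (0.01 with GC and length trends removed) and sums of 110 to 124 in KO and 115 to 123 in WT.

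Among relatives of the 8 genes by family, 21 of 26 were in the table and 12 passed the filter, with 3 above and 9 below WT by log2 fold change and a median of -0.12, which was -0.08 without KO replicate 1 and -0.07 with GC and length trends removed. Relatives at or near 0 were Mafa, Pax1, Pax5, Pax6, Pax9, Tfap2c, Tfap2e, Gata1 and Gata4, none of which passed the filter. Mafg, a small MAF partner protein gene, had 28.0 to 30.1 scaled FPKM in KO kidneys and 31.6 to 35.1 in WT kidneys (log2 fold change -0.16, SE 0.05, limma adjusted p = 0.223), with no overlap.

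Of 14 proximal tubule genes with HNF4A among their regulators, 2 were above and 12 below WT, with a median of -0.21, no call by limma or voom, and 7 at an unadjusted p under 0.05, all lower, against 15.4% of all genes in either direction. The log2 fold change of Hnf4a itself was -0.02. Of the 14, 8 are also among the 9 markers of segments S1 and S2, whose median was -0.21 (-0.11 without WT replicate 3, -0.03 with quantile normalization), while the median of the 6 S3 markers was 0.53, and the part of the segment markers in this list was not tested. The groups did not overlap for 5 of the 14, with KO lower (4.28% of all genes), the phosphate transporter Slc34a1, the glucose transporter Slc5a2, the organic anion transporter Slc22a8 and the amino acid transporters Slc7a7 and Slc7a8. Because this list was written with earlier results of these data known, nothing is read from these shares. Slc22a8 had 142 to 183 scaled FPKM in KO kidneys and 199 to 267 in WT kidneys (-0.49, SE 0.10, limma adjusted p = 0.137), and Slc7a7 had 66.2 to 86.9 in KO and 90.9 to 98.0 in WT (-0.37, SE 0.08, limma adjusted p = 0.151). The median of the 14 was -0.15 with quantile normalization and -0.14 with GC and length trends removed.

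Of 8 genes linked to MAF in proximal tubule or macrophages, 6 passed the filter, with 2 above and 4 below WT by log2 fold change and a median of -0.15, and none was called by limma or voom. The median was -0.06 without KO replicate 1, -0.23 without KO replicate 3, -0.07 with GC and length trends removed and -0.09 with no filter. Gpx3, the plasma glutathione peroxidase made by the proximal tubule, measured 12342, 13436, 13285 and 15913 scaled FPKM in KO kidneys, against 16657, 15726, 17635 and 15310 in WT kidneys (log2 fold change -0.25, SE 0.10, limma adjusted p = 0.280). KO replicate 4, the KO library with the most Maf, was also the one with the most Gpx3 and the one KO library inside the WT range. The WT kidneys did not show this pairing. WT replicate 2 had the most Maf (74.4) but 15726 of Gpx3, and WT replicate 3 had the most Gpx3 with Maf at 70.4. These libraries were singled out after their values were seen, and a link between Maf and Gpx3 was not tested. The macrophage genes C1qa, C1qb and C1qc were below WT in the KO mean and Csf1r and Mrc1 above it, and Cd163 and Il10 did not pass the filter.

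The genes nearest in pattern within genotypes differed for each of the 8. Each r is among the 3 highest of 8160 and rests on 8 libraries that also share depth and tissue makeup, so it describes these libraries. The nearest to Maf were the peptide transporter gene Slc15a2 (0.98), Yeats4 (0.97) and Npc2 (0.96), and the nearest to Zfp503 were Nars (0.97), Tmed9 (0.95) and Cebpb (0.95). Sec24a (0.98), Chd4 and M6pr (both 0.97) were nearest to Hnf4a, Kat8 (0.97), Itm2c and Igfbp5 (both 0.96) to Pax2, and Adsl (0.97), Tspan1 and Pqlc2 (both 0.96) to Pax8. Tatdn3 (0.99), Eif2a and G3bp2 (both 0.97) were nearest to Esrrg, Nudt4 (0.97), Sgpp2 (0.95) and Spa17 (0.94) to Tfap2b, and Tubb2a (0.98) and Dclk3 (0.96) followed Gata2 for Gata3. Slc15a2 measured 29.5 scaled FPKM in KO replicate 4 and 19.2 to 20.0 in the other KO kidneys, against 20.9 to 25.4 in WT kidneys, the pattern in which Maf was highest in KO replicate 4. Between the 8 genes themselves, Hnf4a and Gata3 varied in opposite directions (r -0.81) and Pax2 and Gata3 in the same direction (r 0.68), both over 8 libraries. They were picked as the lowest and the highest r of all pairs of the 8 genes.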

How the data were processed

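The authors deposited 1 table of FPKM for 23386 genes and 8 libraries on mm10, with symbol, position and length, per the file headers. The submitters' processing notes name, without roles, CASAVA, DESeq2, HTSeq 0.6.1 and STAR 2.5, with an annotation release not given in the sources used here. Reads were recovered by multiplying FPKM by length and dividing by a step fitted in each library. They were whole within a tolerance of 0.01 for 100% of the values checked, which were the lower values above 0. Reads of abundant genes were rounded without this check. No column of another sample was present.

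Each library was divided by a median-ratio factor (0.978 to 1.03). For genes with a mean of at least 0.5 (14022), log2(scaled FPKM + 0.5) went into limma 3.58.1 (R 4.3.3, trended eBayes, genotype as the one term), two-sided, with Benjamini-Hochberg adjustment over all genes. The labels call the libraries biological replicates. The scale understates the change of low genes. Neighbouring levels were compared by exact sign-flip permutation. GC content from GENCODE vM21 was found for 99.5% of tested genes, and promoters came from RefSeq (GRCm38.p6). The fit was tested on simulated data.

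The 8 genes and all lists were chosen with earlier results of these data known. Named genes were the 8, C1qtnf1, per list the genes called or otherwise up to 2 of smallest unadjusted p, genes of a segment or family by level, and the 3 nearest in pattern to each. Others are said to be singled out. A few named by this rule are not reported here. Alternatives were pseudocounts 0.1 and 1, other filters, scalings and limma settings, voom, removal of GC and length trends, and leaving out each library. Leaving out KO replicate 3 and WT replicate 3 together was added after seeing the data.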

Additional observations from a re-analysis of the deposited data

Results flagged for a closer look

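Of 34 groups of 4 libraries examined (16 of them the 8 genes in each genotype), 1 held a library far from the others by Dixon's test, and chance flags about 1 in 20 groups. This was Tfap2b in WT kidneys, where the gap between WT replicate 2 (12.2 scaled FPKM) and the nearest library was 0.972 of the whole range, above Dixon's critical value for 4 values.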

How the results depend on the processing

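The number of genes called was 7 and ran from 5 to 16 when single libraries were left out, 16 being the number without WT replicate 3. The number of the 8 genes called was 0 and ran from 0 to 1, Maf being called without KO replicate 4. Groups that did not overlap were found for 2 of the 8, for 2 to 3 with a single library left out (Gata3 without KO replicate 3, Tfap2b without WT replicate 2 or Esrrg without WT replicate 3), and for 5 without KO replicate 3 and WT replicate 3 together. The cause was not tested. Across all alternatives the log2 fold change ran from -0.48 to -0.39 for Maf, -0.34 to -0.23 for Zfp503, -0.34 to -0.13 for Gata3 and 0.04 to 0.19 for Esrrg, and took both signs for Hnf4a, Pax8, Pax2 and Tfap2b. The median of the proximal tubule factors was 0.09 without both libraries, and that of the progenitor or injury factors -0.16 with no filter. The order of levels kept 6 of 7 pairs past the threshold in all 11 alternatives run. No paired analysis was possible because the labels of the KO and WT animals share no numbers. With 211 to 398 reads of Gata3 per library, and 4 animals a group, small differences cannot be resolved.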
